A study of Drosophila melanogaster with 20 samples.

Results

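RAL304 is an inbred line of the Drosophila Genetic Reference Panel (DGRP), a collection of fly lines each inbred from a wild-caught female, and its expression was set against that of 9 other lines of the panel. The line gave 2 of the 20 libraries, taken by their column names in the deposited count table, and the other 18 libraries came from lines RAL69, RAL93, RAL195, RAL335, RAL359, RAL387, RAL409, RAL737 and RAL819. The labels put RAL304 in the detrimental class, with RAL195, RAL335, RAL737 and RAL819, by the outcome of an earlier mild stress, and the other 5 lines in the beneficial class. Each library came from 10 pooled whole male flies, 2 days old and reared at 25 °C. A line gave a pool without heat shock and a separate pool frozen straight after 30 minutes at 35 ± 1 °C. No agent or transgene is given for any group. The series asked what separates the classes, and the study left RAL409 out of its final tables as an outlier by principal component analysis, whereas RAL409 is here one of the 9 comparison lines.

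Inbreeding fixes the same allele on both chromosomes at most genes, so flies of a line are close to genetically identical and both pools of a line share their genotype. Heat shock activates the heat shock factor Hsf, which induces the chaperones Hsp70, Hsp83, Hsp68 and the small heat shock proteins. The Hsp70 genes lie in a pair of clusters on chromosome arm 3R, the A copies and the B copies. The endoplasmic reticulum (ER) has its own chaperone, Hsc70-3, also called BiP, and its own stress sensors, Ire1, PEK and Atf6.

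The RAL304 libraries held 26.0 M counts without and 27.7 M with heat shock, and those of the other lines 18.4 to 33.7 M. Levels are counts per 1000000 counts (CPM), scaled by the trimmed mean of M values (TMM), and a count of 0 allows up to 0.11 CPM untreated and 0.125 CPM after heat shock in RAL304, for counting error only. The TMM factor of the RAL304 heat shock library, 0.867, was the lowest of the 20, with 0.903 to 0.982 in the other heat shock libraries. After the mean of each treatment was removed, the 2 RAL304 libraries correlated at r = 0.814 across 12695 genes. Neither correlated at more than 0.024 with another line's library of the other treatment, and libraries within a treatment were not compared. Removing the mean itself lowers correlations between lines. These correlations are descriptions across genes, which are not independent replicates. Both libraries held the male dosage compensation RNAs, with roX1 at 578 and 336 CPM and roX2 at 14.6 and 12.9 CPM. The 19 annotated female and egg genes summed to 20.6 and 42.3 CPM, within the 13.5 to 25.7 and 32.1 to 45.2 CPM of the other lines. Each line has 1 pool per treatment, so the spread between pools of a line was not measured.

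RAL304 lay above or below every other line in both treatments for 1323 of 14689 genes tested, 9.01%. Of these, 713 (4.85%) lay above and 610 (4.15%) below, and the split turned to 428 above and 846 below when libraries were scaled by their totals in place of TMM. The same count put RAL304 behind 3 of the 9 other lines, RAL409 with 1946 genes, RAL819 with 1729 and RAL69 with 1504, and RAL359 had the fewest with 556. Without RAL409 among the comparison lines RAL304 had 1790 such genes. Leaving out any line can only narrow the range of the others at a given scaling. Each of the remaining lines left out in turn gave 1409 to 1637.

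**Figure D1:**
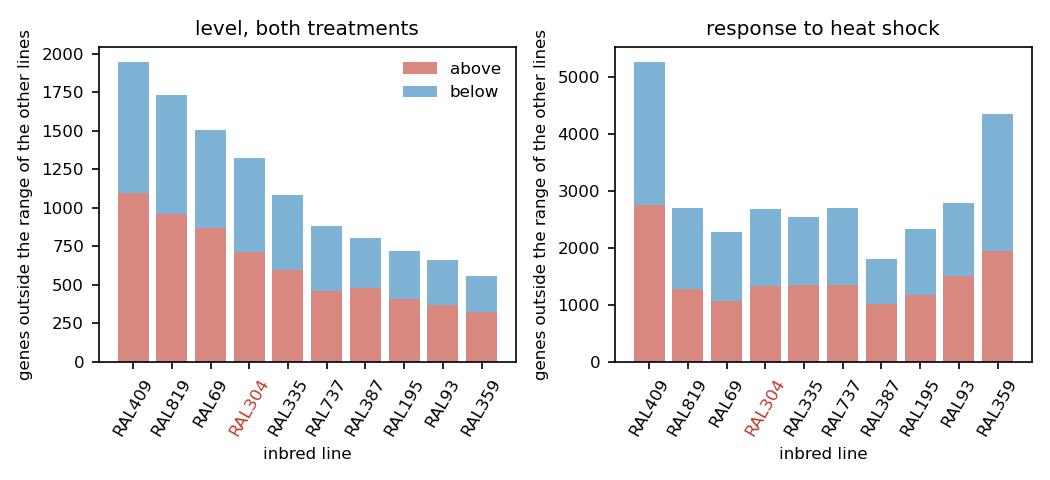
Number of genes for which each inbred line lay above (red) or below (blue) all 9 other lines, in level under both treatments (left) and in its log2 response to heat shock (right). RAL304, with 1323 genes in level and 2670 in response, stands behind 3 of the 9 other lines in level and among the middle lines in response.

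With treatment as a covariate, 286 genes (1.95%) differed between RAL304 and the other lines at an adjusted p under 0.05, 144 higher (0.98%) and 142 lower (0.967%). Scaling by library totals gave 256 genes, 93 higher and 163 lower. Of the 286, 280 also lay outside the range of every other line in both treatments, and 138 differed at least 2-fold, 54 higher and 84 lower. Leaving out RAL409 raised the count to 432. Both libraries of a line entered this fit separately, so its p-values take pools and not lines as the unit and are too small as statements about lines. With both libraries of a line averaged, 45 genes passed, all of them among the 286. With line as a random effect (a replicate block) 111 passed, 89 of them among the 286.

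Within each treatment the line is the unit and the lone RAL304 library is assumed to vary as the other lines do. Without heat shock 29 genes (0.197%) passed, 10 higher and 19 lower. After heat shock 40 genes (0.272%) passed, 16 higher and 24 lower, or 34 with 10 higher and 24 lower when scaled by library totals. In each treatment alone and in the same direction, 23 genes (0.157%) passed, 7 higher and 16 lower, and all 23 were also among the 45 that passed with 1 value per line. These 23 are described first. With line as a random effect 22 of them passed as well, all except CG12483.

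**Figure D2:**
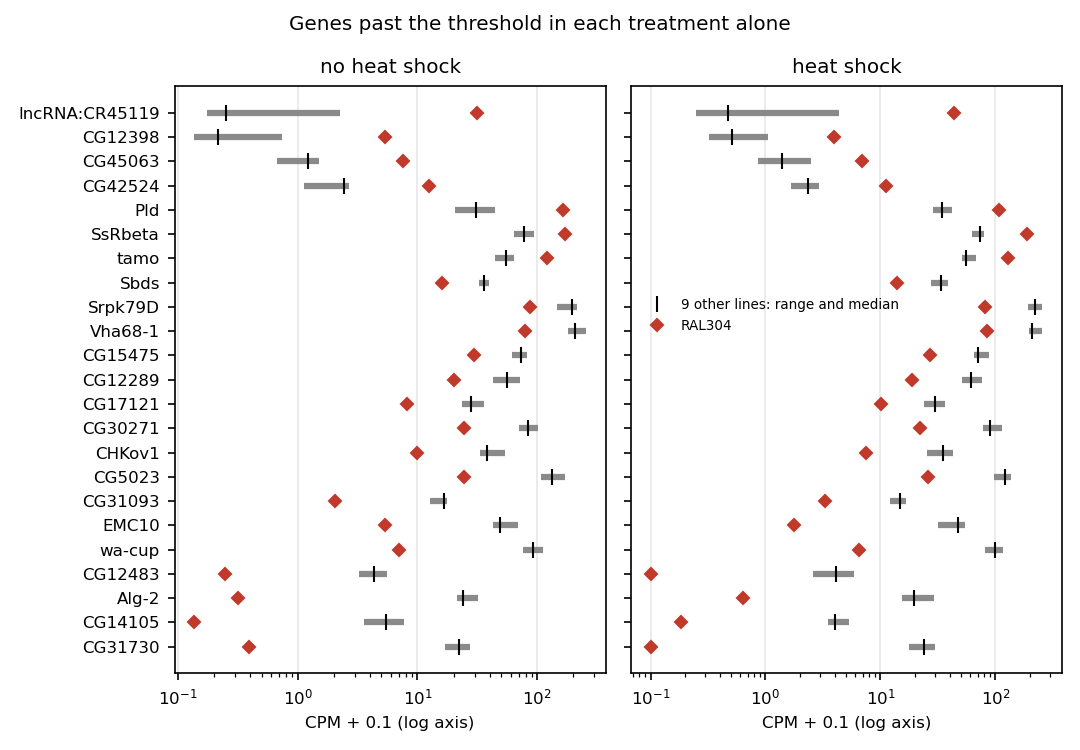
CPM plus 0.1 on a log axis for the 23 genes past the threshold in each treatment alone, without (left) and with (right) heat shock. Red diamonds are the single RAL304 library, grey bars the lowest to highest and black ticks the median of the 9 other lines. In all 23 genes the diamond lies outside the grey bar, 16 below it and 7 above it.

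Few or no reads of 4 coding genes were counted in RAL304. Counts rest on reads aligned to the BDGP6 reference. Whether RAL304 reads align there as well as those of other lines was not tested for any gene. Alg-2 (3R:3623143-3627690, BDGP6), which encodes a calcium-binding EF-hand protein named for apoptosis, stood at 0.219 CPM untreated and 0.541 CPM after heat shock in RAL304. In the other lines Alg-2 ran from 21.3 through a median of 23.9 to 32.0 CPM without and from 15.4 through 19.3 to 29.0 CPM with heat shock. Every other line lay far above both RAL304 libraries, and the log2 difference was −5.86 ± 0.32 (SE; edgeR adjusted p = 4.3e-10). CG31730 (2L:13259064-13259743) had 8 counts, 0.292 CPM, without heat shock and 0 counts with it, whereas the lowest other line had 16.9 and 17.8 CPM. The medians of the other lines were 22.2 and 23.8 CPM and the highest values 27.4 and 29.5 CPM, and the groups did not overlap (edgeR adjusted p = 4.0e-09). CG14105 (3L:13425891-13426673) had 1 and 2 counts in RAL304, 0.0365 and 0.0833 CPM, against 3.49 to 7.60 and 3.37 to 5.19 CPM in the other lines. It was 1 of 2 genes under 0.1 CPM in both RAL304 libraries with at least 1 CPM in each of the 18 others. No gene met the reverse. CG12483 (3L:97628-98375) had 4 counts and 0 counts in RAL304, 0.146 and 0.00 CPM, against at least 3.16 and 2.49 CPM elsewhere. With line as a random effect CG12483 did not pass (adjusted p = 0.117, limma).

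A pair of genes of the ER membrane machinery lay outside the range of the other lines, in opposite directions. EMC10 (3L:21574131-21575874) encodes a subunit of the ER membrane complex, which inserts transmembrane proteins into the ER. RAL304 had 5.30 CPM of EMC10 without and 1.67 CPM with heat shock. The other lines had 42.5 through a median of 48.8 to 68.3 CPM without and 31.7 through 47.2 to 54.1 CPM with heat shock. Both RAL304 libraries lay below all 18 others, by −3.83 ± 0.30 on the log2 scale (edgeR adjusted p = 6.4e-08). SsRbeta (3L:16129617-16130983), a subunit of the translocon-associated complex at the ER protein channel, was higher. It stood at 170 and 188 CPM in RAL304. The other lines ran from 63.6 through 76.9 to 93.1 CPM and from 62.5 through 73.4 to 79.6 CPM. No other line came near either RAL304 value, and the log2 difference was 1.26 ± 0.10 (edgeR adjusted p = 9.5e-08).

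Among the other lower genes, wa-cup (3R:7420765-7423057), a gene of the cup class expressed late in sperm development, had the smallest p of the whole table. It stood at 6.90 and 6.41 CPM in RAL304. The other lines ran from 75.8 through 91.3 to 111 CPM and from 80.6 through 99.5 to 116 CPM. The RAL304 libraries lay close together and far below the rest (log2 difference −3.84 ± 0.17, edgeR adjusted p = 2.2e-11). CG5023 stood at 24.6 and 26.0 CPM against 107 to 169 and 96.5 to 136 CPM in the other lines, a log2 difference of −2.33 ± 0.18. CG31093 stood at 1.94 and 3.17 CPM against 12.6 to 17.7 and 12.0 to 16.6 CPM, a log2 difference of −2.58 ± 0.19. Neither gene overlapped with any other line in either treatment.

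The remaining 8 of the 16 lower genes fell outside the naming rule and were named after their values were seen. They were CHKov1, whose alleles are known for differences in sigma virus resistance; CG30271; CG17121; CG12289; CG15475; Vha68-1, a catalytic subunit of the vacuolar proton pump; Srpk79D, a kinase of the SR protein family; and Sbds, a factor of ribosome maturation. Their log2 differences ran from −2.10 ± 0.20 in CHKov1 to −1.22 ± 0.12 in Sbds. CHKov1 stood at 9.90 and 7.33 CPM in RAL304 against 32.9 to 53.8 and 25.2 to 42.7 CPM elsewhere. Vha68-1 stood at 79.1 and 85.1 CPM against 182 to 255 and 195 to 256 CPM elsewhere. In both genes the RAL304 values lay well under the lowest other line. Sbds, Srpk79D and CG15475 overlap a gene on the opposite strand and CG30271 overlaps 1 on its own strand, and since the strand setting of the counting is not given in the sources used here, reads of such pairs cannot be told apart.

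Of the 7 higher genes, Pld (2R:6242004-6255266), which encodes phospholipase D, stood at 165 CPM untreated and 107 CPM after heat shock in RAL304. The other lines ran from 20.5 through a median of 30.5 to 44.3 CPM and from 28.7 through 34.4 to 41.7 CPM. Both RAL304 libraries lay above every other line, by 2.04 ± 0.16 on the log2 scale (edgeR adjusted p = 6.4e-08). The gene tamo (2R:24126638-24133551), whose product limits nuclear import of the transcription factor Dorsal, stood at 121 and 129 CPM against 43.9 to 63.4 and 51.4 to 67.5 CPM in the other lines. The log2 difference of tamo was 1.16 ± 0.09 (edgeR adjusted p = 1.0e-07). The long noncoding RNA lncRNA:CR45119 (3L:11050408-11050908) stood at 31.0 and 43.3 CPM. In the other lines it ran from 0.0738 through 0.153 to 2.16 CPM and from 0.15 through 0.377 to 4.29 CPM. Its log2 difference, 6.0 ± 0.69 (edgeR adjusted p = 1.9e-05), was the largest positive one among the genes named. With DESeq2 and treatment as a covariate lncRNA:CR45119 did not pass. It overlaps CG43693 on the opposite strand. CG12398, CG45063 and CG42524 were higher by 4.05 ± 0.48, 2.59 ± 0.26 and 2.43 ± 0.21, with RAL304 at 3.83 to 12.3 CPM and every other line at 2.85 CPM or less. CG12398 overlaps Flo2 on the opposite strand and CG42524 overlaps the microRNA gene mir-278 on its own strand.

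Further genes passed with treatment as a covariate but not with 1 value per line, and their adjusted p there (limma) is given beside them. Cyp6a8, a cytochrome P450 known from insecticide response, stood at 146 and 66.6 CPM in RAL304 against 6.53 to 55.8 and 3.79 to 33.1 CPM elsewhere (0.478 with 1 value per line). Cyp9h1, of the same family, stood at 15.2 and 16.8 CPM against at most 11.9 and 7.71 CPM (0.315). Cat, the catalase that breaks down hydrogen peroxide, stood at 902 and 1173 CPM against 531 to 775 and 629 to 916 CPM (0.431). These RAL304 values lay above every other line in both treatments. Tep2, a thioester protein of immune defence, stood at 146 and 209 CPM against at most 106 and 137 CPM (0.478). Mtp, a triglyceride transfer protein of lipoprotein assembly, stood at 41.4 and 47.6 CPM against at most 32.5 and 31.8 CPM (0.277). On the lower side, the ER stress sensor Atf6 stood at 21.4 and 13.2 CPM against 28.5 to 42.7 and 23.4 to 36.0 CPM (0.0763). The gene para, which encodes the voltage-gated sodium channel, stood at 56.0 and 51.6 CPM against 57.4 to 169 and 91.5 to 167 CPM (0.125), and it overlaps Cnx14D on its own strand. CG8343 stood at 1.90 and 1.79 CPM against 13.4 through a median of 125 to 172 CPM and 11.5 through 139 to 168 CPM (0.0628). The lowest other line for CG8343, RAL819, lay far below the rest and still above RAL304. Among these genes Tep2 overlaps CG43235 on the opposite strand.

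Several noncoding RNAs had few or no counts in RAL304. The neighbours lncRNA:CR45653 and lncRNA:CR45654 (3R:25843918-25844378 and 3R:25845678-25846318) had 2 and 1 counts without heat shock and 0 counts each with it. In the other lines lncRNA:CR45653 ran from 1.33 to 9.78 and from 1.64 to 9.88 CPM, and it is the second of the 2 genes close to absent in RAL304 alone by the CPM limits above. It passed with 1 value per line (adjusted p = 0.0103, limma) and not with line as a random effect (0.777). lncRNA:CR43622 and lncRNA:CR45150 had 0 counts in both RAL304 libraries, with 0.428 to 1.82 CPM and 0.0722 to 4.09 CPM in the other lines. The 0.0722 CPM, in RAL359 after heat shock, lies under the 0.125 CPM that 0 counts allow in RAL304. With line as a random effect neither passed (adjusted p = 0.166 and 0.801, limma), nor did lncRNA:CR45654 (0.907). lncRNA:CR45150 and lncRNA:CR45654 did not pass with 1 value per line either. lncRNA:CR45877, which overlaps dpr6 on its own strand, stood at 0.11 and 0.00 CPM against 1.61 to 5.42 and 2.63 to 6.13 CPM. It did not pass with line as a random effect (adjusted p = 0.28, limma). Of 1681 noncoding RNAs tested, 45 (2.68%) passed with treatment as a covariate, beside 234 of 12689 coding genes (1.84%) and 7 of 204 pseudogenes (3.43%). Just inside the range rule, lncRNA:CR43942 was at 0 counts in RAL304 and also at 0.00 CPM in the lowest other line after heat shock. Just outside it, lncRNA:CR45654 stood at 0.0365 CPM without heat shock and the lowest other line at 0.0375 CPM.

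Of the tested genes, 9.33% lay outside the range on 2L, 9.51% on 2R, 9.38% on 3L and 9.67% on 3R. The share on X was lower, at 6.88%. With treatment as a covariate 2.24% of tested genes passed on 2L, 2.46% on 2R, 2.11% on 3L, 1.70% on 3R and 1.29% on X, and 1 of 101 on chromosome 4. On the Y, 0 of 56 passed and 4 lay below all other lines. The longest run of neighbouring tested genes outside the range in the same direction held 4 genes, the pseudogenes CR43214, CR43213, CR43212 and CR43211 (X:11591469-11599638). These lie 1 after another on the same strand, all stood at 1.33 to 1.83 CPM in RAL304, and CR43214 alone passed, though not with 1 value per line (0.444). Another 5 runs held 3 genes each. In the run of Cyp316a1, Cyp4d8 and CG8539 (3L:7491864-7498831) all 3 were higher, and CG8539 passed with a log2 difference of 1.03 ± 0.14 (edgeR adjusted p = 0.000109), though not with 1 value per line (0.0534). Cyp4d8 stood at 31.0 and 28.8 CPM against at most 30.5 and 27.0 CPM. In the run of CG32462, CG32459 and CG13239 (3L:22852270-22861490) all 3 were lower, and CG32462 and CG32459 passed, though not with 1 value per line (0.30 and 0.454) or with line as a random effect (0.377 and 0.382). The other 3 runs, also higher in RAL304, were CG8066 to CG7987, Nepl13 to Nepl15, and Bili to danr. CG32462, named above, overlaps asRNA:CR43426 on the opposite strand.

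Gene lists are described by how many tested members lay above or below all other lines in both treatments, beside 4.85% above and 4.15% below over all genes. Of 80 cytochrome P450 genes 11 lay above (13.8%) and 3 below, among them Cyp6w1 at 331 and 356 CPM against at most 283 and 267 CPM. Of these 80, 2 passed higher and 1 lower, and their median log2 difference was 0.12 beside −0.02 over all genes. Of 23 muscle genes 4 lay above (17.4%) and none below, or 2 above with library totals, and 0 passed. The myosin light chain gene Mlc2 stood at 6541 and 7521 CPM against at most 6339 and 5816 CPM. Of 17 fat body and lipid storage genes 4 lay above (23.5%), or 3 with library totals, and Mtp was the 1 that passed. The lipophorin precursor apolpp stood at 1410 and 1199 CPM against at most 1227 and 991 CPM. Of 52 testis genes 7 lay below (13.5%) and none above, and Mst89B was the 1 that passed, though not with 1 value per line (0.491). The 23 muscle genes summed to 53730 CPM after heat shock against 31220 to 43420 CPM, and to 43520 CPM without it, within the other lines' 28060 to 46340 CPM. The 52 testis genes summed to 17710 CPM without heat shock against at least 18040 CPM. With heat shock they summed to 17540 CPM, within 17000 to 22150 CPM. As a share of counts after heat shock they lay just below the other lines, at 1.52% against 1.534% to 2.157%. Mst89B kept its call in 7 of 16 alternatives and overlaps Mat89Ba on the opposite strand. In whole flies, fewer cells of a type and less RNA per cell cannot be told apart, and the part of either in the differences above was not tested. Of 24 histone lysine methyltransferases and partners 1 lay above and none below, and 0 passed. Among them E(z), trx, G9a, Su(var)3-9 and egg had log2 differences of −0.38 to 0.13.

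The heat shock response of RAL304 was close to that of the other lines over most responsive genes. In a fit of the 9 other lines 2310 genes rose and 2705 fell at an adjusted p under 0.05 (edgeR). In RAL304, which had no part in choosing them, 2084 (90.2%) of the first and 2440 (90.2%) of the second changed with the same sign. The same count made with each other line held out in turn gave 86.0% to 94.6% and 82.6% to 94.4%. Over 429 genes that rose at least 2-fold in the others, the median response of RAL304 was 1.48 and that of the others' mean 1.5 on the log2 scale. Across the genes that rose or fell in the others, the responses of RAL304 and the mean of the others correlated at r = 0.908. The same value was 0.867 to 0.926 with each other line held out in turn. It covers only genes called responsive in the comparison lines, not all genes tested.

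The difference between the response of RAL304 and those of the other lines, fitted with line as a block, passed for 0 genes (0%) at an adjusted p under 0.05 (edgeR). At an unadjusted p under 0.05 there were 469 genes, the smallest adjusted p was 0.260, and DESeq2 called 7. Without the block edgeR also called 0. As a description, the response of RAL304 lay outside the range of the 9 other responses for 2670 genes, 18.2%, with 1329 above and 1341 below. Scaling by library totals turned this split to 653 above and 2455 below. The TMM share ran from 12.2% in RAL387 to 35.8% in RAL409.

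After heat shock RAL304 held far more transcript of the B copies of Hsp70, the main inducible chaperone, than any other line. The split by cluster was chosen after the values were seen. The 4 B copies (Hsp70Ba, Hsp70Bb, Hsp70Bbb and Hsp70Bc, 3R:12465453-12511461) summed to 54050 CPM in RAL304. The other lines ran from 22070 through a median of 24050 to 30830 CPM, with a mean of 24650 ± 2710 CPM (SD, n = 9). RAL304 thus had 2.19 times their mean and 1.75 times the highest, RAL387. The 2 A copies (Hsp70Aa and Hsp70Ab, 3R:11954163-11960909) summed to 25170 CPM in RAL304 and to 19070 through 22170 to 26150 CPM in the others, so the A copies lay inside the range, below RAL409. The ratio of B to A was 2.15 in RAL304 and 0.908 to 1.39 in the others. Without heat shock both sums lay inside the range, at 11.8 CPM for the A copies and 23.6 CPM for the B copies. All 6 copies together took 6.86% of the counts of the RAL304 heat shock library and 4.11% to 4.89% of the others, a share that needs no scaling between libraries.

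**Figure D3:**
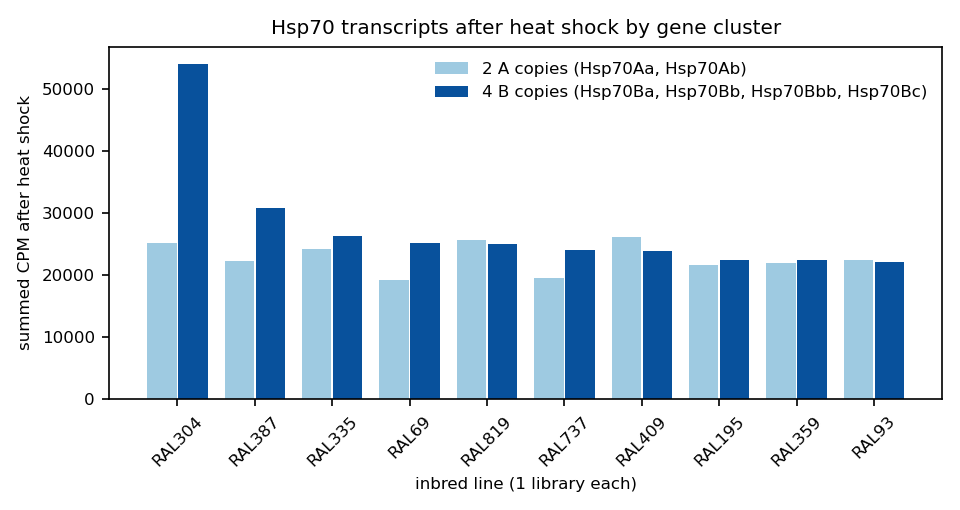
Summed CPM of the 2 A copies and the 4 B copies of Hsp70 in the heat shock library of each of the 10 lines, 1 library a bar. The A bars lie between 19070 and 26150 CPM in all lines including RAL304, while the B bar of RAL304 (54050 CPM) stands above all others, the next being RAL387.

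Each B copy alone was above all other lines after heat shock. Hsp70Bc stood at 14820 CPM against 5558 through 5927 to 7538 CPM, and it passed in the heat shock libraries (edgeR adjusted p = 0.00197). Hsp70Bb stood at 15960 CPM against 6573 through 7178 to 8973 CPM (edgeR adjusted p = 0.00614). Hsp70Bbb stood at 14360 CPM against 5890 through 6493 to 8285 CPM (edgeR adjusted p = 0.00963). These 3 neighbouring copies passed, and Hsp70Ba, which lies apart from them in the cluster, did not. Hsp70Ba stood at 8912 CPM against 3961 through 4146 to 6030 CPM (edgeR adjusted p = 0.0694). Hsp70Aa and Hsp70Ab stood at 12440 and 12730 CPM, within 9385 to 12900 and 9683 to 13250 CPM. The copies are near-identical, so how reads were shared among them is uncertain and the sums by cluster are firmer than single copies. The response of the 6 copies together, on the log2 scale, was 11.13 in RAL304, within the 9.64 to 11.21 of the other lines. Without heat shock these sums were 35.4 CPM in RAL304 and 22.4 to 63.3 CPM in the other lines. For the responses of Hsp70Bb, Hsp70Bbb and Hsp70Bc, which lay above the other lines, no adjusted p passed. Between the B copies, the heat-induced noncoding RNA lncRNA:alphagamma-element:CR32865 (3R:12475336-12478267) went the other way. It reached 63.7 CPM in RAL304 after heat shock against 70.7 to 432 CPM in the other lines, and it did not pass (edgeR adjusted p = 0.637).

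The other heat shock genes named by rule did not pass in either treatment. Hsp83, the fly Hsp90, reached 10100 CPM after heat shock against 7908 to 9679 CPM, and its response of 3.97 lay just above the 3.43 to 3.92 of the other lines. Hsp68 reached 10380 CPM against 6608 to 10030 CPM, with a response of 7.30 inside 6.81 to 7.70. Scaled by library totals in place of TMM, neither Hsp83 nor Hsp68 lay above every other line after heat shock. The Hsp83 response was then inside the range as well. Hsp27 had a response of 6.45 above 5.21 to 6.21. Its level without heat shock was the lowest (46.2 CPM against at least 52.3 CPM). After heat shock it reached 4039 CPM with TMM, just above the 2944 to 4030 CPM of the other lines. Hsp23, Hsp26, DnaJ-1 and stv, a co-chaperone, had responses of 7.26, 6.62, 4.55 and 4.25, each inside the range of the other lines.

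Many ER genes had a response in RAL304 above that of every other line, though no single response passed. Hsc70-3, the ER chaperone BiP, stood at 508 CPM untreated and 2160 CPM after heat shock. The other lines ran from 387 through 453 to 478 CPM and from 946 through 1354 to 1485 CPM. RAL304 lay above all of them in both treatments and farther above after heat shock. Its response was 2.09 against 1.29 to 1.82, a difference of 0.54 ± 0.21 (unadjusted p = 0.0224, edgeR adjusted p = 1). The level difference did not pass either (adjusted p = 0.0724). Gp93, the ER form of Hsp90, had a response of 1.25 in RAL304 and 0.62 to 1.10 in the other lines, with an unadjusted p of 0.0164 (edgeR; not passed after adjustment). Xbp1, the transcription factor spliced by Ire1, had a response of 1.1 against 0.64 to 1.04, and PEK, the kinase that phosphorylates eIF2alpha, a response of 1.23 within 0.91 to 1.58. PEK levels were 60.4 and 142 CPM against at most 51.3 and 128 CPM. Scaled by library totals, the PEK and Xbp1 levels of RAL304 after heat shock lay inside the range of the other lines. Of 23 ER folding and stress genes 10 had a response above all other lines and 2 below, the latter Atf6 and Ire1, beside 1329 above and 1341 below of 14689 genes, or 653 and 2455 with library totals. The median response of the list was 0.18 in RAL304 and −0.06 to 0.09 in the others. With library totals in place of TMM 7 lay above and 2 below, and the median of RAL304, −0.10, was inside the −0.27 to −0.05 of the others.

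**Figure D4:**
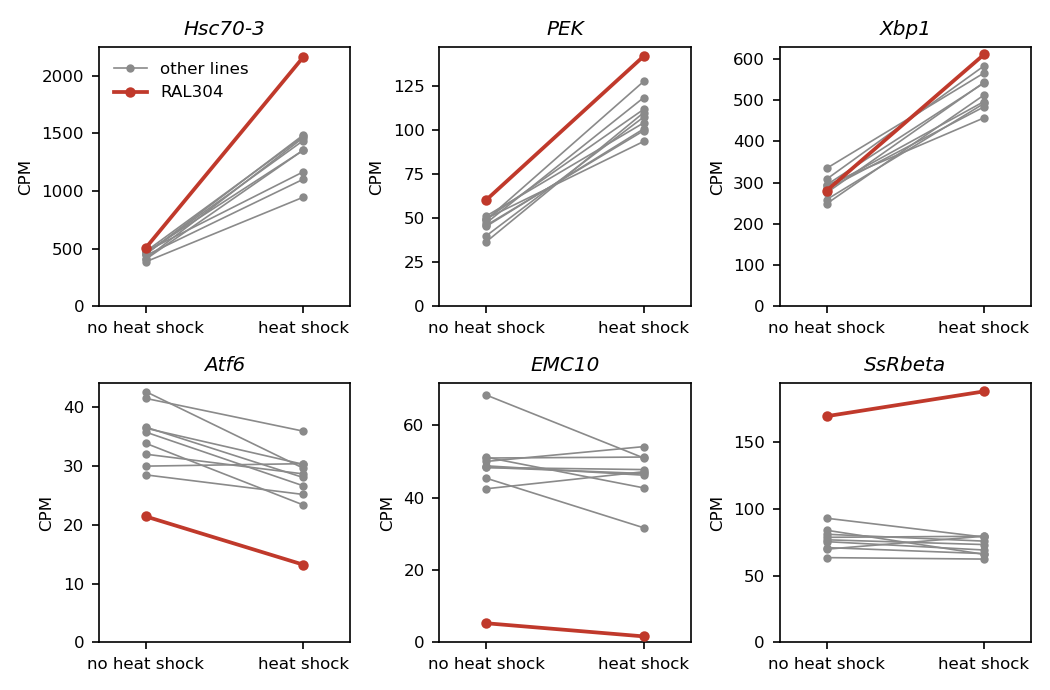
CPM without and with heat shock of 6 genes of the ER, each line joining the 2 libraries of an inbred line, RAL304 in red and the 9 other lines in grey. With TMM scaling, RAL304 lies above the other lines after heat shock for Hsc70-3, PEK, Xbp1 and SsRbeta and below them under both treatments for Atf6 and EMC10. With library totals PEK and Xbp1 lie inside the range after heat shock.

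Of 91 cytosolic ribosomal protein genes 36 had a response above all other lines and none below, beside 1329 above and 1341 below of 14689 genes. Their median response was 0.27 in RAL304 against −0.33 to 0.27 in the others. Of 84 respiratory chain genes 33 lay above and 1 below, with a median of 0.18 against −0.42 to 0.15. These counts were 44 and 39 above with DESeq2's size factors and 15 and 19 above with library totals. Library totals put the median response of all genes at −0.30 in RAL304 and at −0.28 to −0.12 in the others, against −0.02 for RAL304 with TMM. On that scale the medians of both lists were −0.01 and −0.10, above that of all genes and inside the −0.44 to 0.04 and −0.52 to −0.10 of the other lines. Of 52 testis genes 11 had a response below all other lines and 1 above, and of 100 olfactory and gustatory receptors 15 lay below and 6 above. Of 15 mitochondrially encoded genes tested, 1 had a response below all other lines and none above. Their median response was −0.67 in RAL304 against −0.52 to 0.65 in the others. All 38 annotated ones summed to 36490 CPM untreated and 16120 CPM after heat shock in RAL304. The other lines had 26610 to 66330 and 22960 to 62000 CPM. The heat shock library of RAL304 thus held the least such transcript of the 10, 1.40% of its counts against 2.26% to 5.83%. The part of this difference in the responses was not tested.

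**Figure D5:**
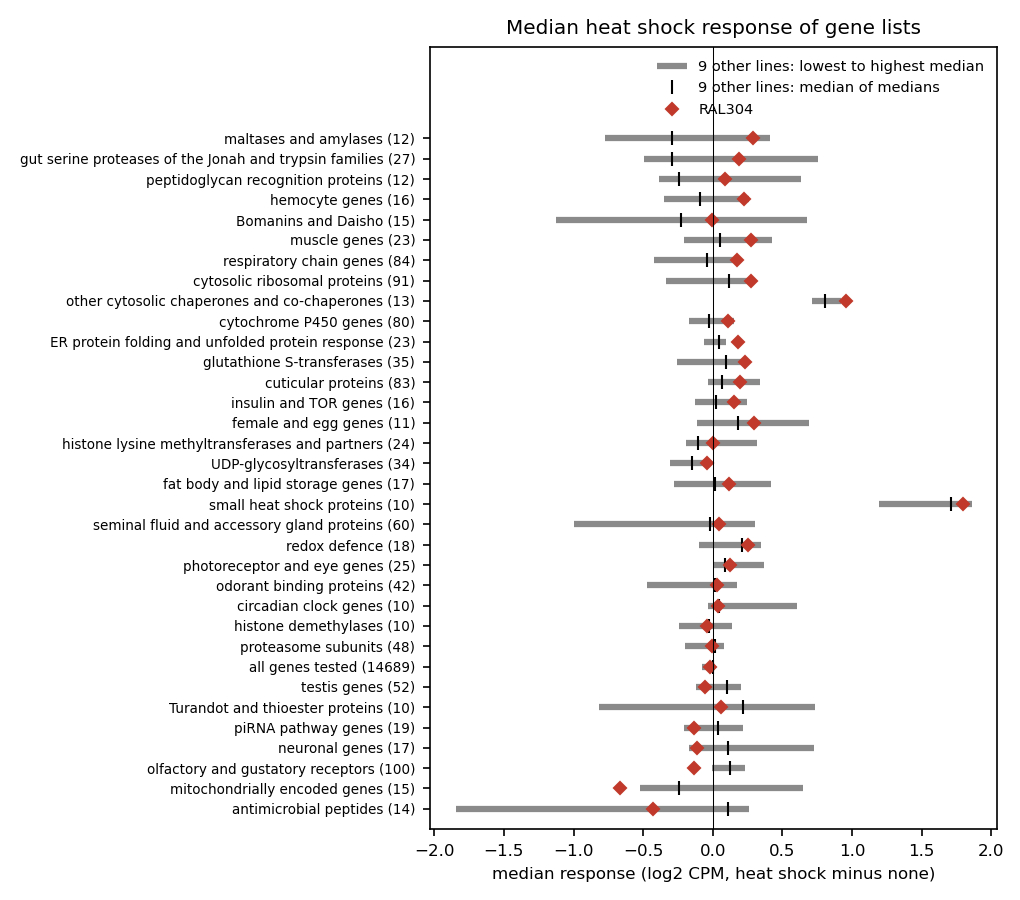
Median log2 response to heat shock over the tested genes of each list with at least 10 of them (number in brackets), for RAL304 (red diamonds) and for the 9 other lines (grey bars from the lowest to the highest line, black tick their median). RAL304 lies above the bar for 5 lists (ER protein folding, other cytosolic chaperones, glutathione S-transferases, respiratory chain, cytosolic ribosomal proteins), all of them inside the range with library totals, and below it for mitochondrially encoded genes and for olfactory and gustatory receptors.

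The 10 responses named by the smallest p were those of 5 genes above and 5 below the other lines, and none passed in edgeR. The pheromone-sensing channel gene ppk25 went from 0.767 to 7.08 CPM in RAL304, a response of 3.09 against 0.61 to 1.76. It overlaps CheB42c on the opposite strand, which DESeq2 called (adjusted p = 0.0338). Mst85C went from 5.95 to 48.5 CPM, a response of 3.01 against 1.66 to 2.19, and it overlaps Nmdmc on the opposite strand. DESeq2 called Mst85C (adjusted p = 0.0336) where edgeR gave 0.392. E(spl)mbeta-HLH, a Notch target and transcriptional repressor, went from 2.15 to 3.33 CPM in RAL304, a response of 0.61 against −1.48 to −0.84 (DESeq2 adjusted p = 0.0495, edgeR 0.321). Ugt37B1, a UDP-glycosyltransferase, went from 1.83 to 8.12 CPM, a response of 2.11 against −0.25 to 0.90 (DESeq2 adjusted p = 0.0336, edgeR 0.514). The fifth, the muscarinic receptor gene mAChR-C, went from 2 to 15 counts, and it overlaps nonC on the opposite strand. On the other side, EMC10 went from 5.30 to 1.67 CPM, a response of −1.63 against −0.52 to 0.15 (DESeq2 adjusted p = 0.0338, edgeR 0.505), and it was low in both RAL304 libraries. Drsl2, of the Drosomycin family of immune peptides, went from 14.5 to 3.79 CPM, a response of −1.92 against −0.35 to 0.52 (edgeR adjusted p = 0.260, the smallest of all). CG31730 went from 8 counts to 0. The other 2, asRNA:CR44046 and E(spl)mdelta-HLH, had lower responses than in every other line, at −0.43 and 0.32 in RAL304. The first overlaps CG15528 on the opposite strand. The remaining 2 of the 7 DESeq2 calls were CG11034 and CG16772, with CG16772 at 197 and 365 CPM in RAL304 and at 99.1 to 179 CPM in the others after heat shock.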

How the data were processed

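Stranded mRNA libraries were made from whole flies, per the labels' protocols. The authors deposited a table of whole-number counts, 20 libraries by 17807 genes. Tools named in the submitters' processing notes are DESeq2 1.28.1, SAMtools 1.12 and Bowtie2 2.2.9, with the genome build BDGP6. The counting tool, its strand setting and its annotation are not given in the sources used here. Names and positions came from the BDGP6 annotation of Ensembl release 115, which matched 17710 identifiers. The authors' 2 result tables were not used here.

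Genes were kept by filterByExpr with line as the group (14689), scaled by TMM, and tested by quasi-likelihood F tests in edgeR 4.0.16 (R 4.3.3) with Benjamini-Hochberg adjustment over all genes. Responses are log2 CPM with a prior count of 2, heat shock minus none. The tests were tried on simulated counts. Each simulated library was drawn independently, so that trial cannot show the effect of taking pools as the unit. The line, the 35 gene lists and the comparisons were chosen with earlier results of these data known. Genes were named by rule, 88 in all. It took the 12 largest changes and 6 smallest p per direction among genes past 0.05, outside the range and at 1 CPM or more; up to 3 per list; 5 responses per direction; heat shock, ER, histone and sex genes; 3 runs; genes close to absent; and those nearest to the range limit. Alternatives used DESeq2 1.42.0, limma 3.58.1, other scalings and filters, and lines left out. Both libraries of a line come from the same line, which pairs them.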

Additional observations from a re-analysis of the deposited data

Results flagged for a closer look

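Among 182 groups of 9 other lines (88 named genes, both Hsp70 sums and the total counts, under each treatment), 32 had a library apart from the rest by Dixon's gap test at the 95% critical value. Chance gives about 1 in 20 such groups, and the values below limit the range that RAL304 was set against.

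Some of them bear on genes described above. Among the other lines without heat shock, Alg-2 was highest in RAL409 at 32.0 CPM, EMC10 in RAL409 at 68.3 CPM, CG12398 in RAL195 at 0.633 CPM and Hsp27 in RAL819 at 88.5 CPM. After heat shock, Alg-2 was highest in RAL93 at 29.0 CPM, tamo in RAL195 at 67.5 CPM, and the summed Hsp70 B copies in RAL387 at 30830 CPM. CG8343 was lowest in RAL819 at 11.5 CPM after heat shock. lncRNA:CR45119 was highest in RAL359, with 2.16 CPM untreated and 4.29 CPM after heat shock. Drsl2 was highest in RAL819, at 5.78 and 6.27 CPM. The trx transcript was lowest in RAL409 without heat shock at 32.4 CPM. The library with the lowest total after heat shock was that of RAL737 at 18.4 M.

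The remaining libraries apart were the highest of the other lines unless named as lowest. RAL819 stood apart for Yp1 (0.404 and 0.428 CPM) and, after heat shock, for CG4757 (104 CPM), lncRNA:roX1 (589 CPM) and CR43213 (4.13 CPM), and it was lowest for lncRNA:CR43452 (0.162 and 0.156 CPM). RAL69 stood apart for CG43799 (1.57 and 0.903 CPM) and, without heat shock, for Cpr47Ea (19.0 CPM). RAL387 stood apart for lncRNA:CR45228 (0.738 and 0.386 CPM). Without heat shock RAL359 stood apart for Prosbeta4R1 (20.2 CPM) and RAL409 for Ugt37D1 (69.0 CPM), and RAL409 was lowest for Or59c (2.21 CPM). After heat shock RAL737 stood apart for CG34007 (1.87 CPM), RAL359 for lncRNA:CR46218 (0.505 CPM) and RAL195 for lncRNA:CR46117 (3.75 CPM).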

How the results depend on the processing

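With treatment as a covariate 286 genes passed. DESeq2 gave 575, and leaving out each other line in turn gave 238 (without RAL387) to 432 (without RAL409). Line as a random effect (a replicate block), with a consensus correlation of 0.605 between the libraries of a line, gave 111 (73 higher, 38 lower), and 1 value per line gave 45 (9 higher, 36 lower). Without heat shock 29 passed, with DESeq2 100, and against the 4 other detrimental lines alone 9. After heat shock 40 passed, with DESeq2 127, and against those 4 lines 6. Fewer lines enter these last fits, and the cause of the other shifts was not tested. For the response DESeq2 gave 7 in place of 0, and the fit without the replicate block gave 0 (86 at an unadjusted p under 0.05). Alternatives for the summed Hsp70 B copies were chosen after seeing the data. Their ratio of 2.19 to the mean of the other lines was 2.02 with library totals, 2.21 with DESeq2's size factors and 2.16 to 2.26 with each other line left out. Of 54 named genes past the threshold, 13 kept the call in all 16 alternatives, and none of the 88 named genes changed sign with a call. With 1 pool per line and treatment, the spread between pools of a line is unknown, and genes under about 1 CPM rest on few counts.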

Other observations

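A further 11 genes named by rule differed with treatment as a covariate (edgeR adjusted p under 0.05) and lay outside the range of the other lines in both treatments. None of the 11 passed with 1 value per line (limma), with adjusted p from 0.0696 for Cpr47Ea to 0.601 for CG4757, and CG4757 kept its call in 2 of 16 alternatives. Of those 16, GstS1 kept its call in 6, RpL22-like in 8 and the rest in 12 (Cpr50Cb) to 15 (Cpr47Ea). Values are given without and then with heat shock. Tep5Psi, annotated as a thioester protein pseudogene, had 0 counts in both RAL304 libraries against 0.0746 to 0.89 and 0.161 to 0.831 CPM. The cuticle protein genes Ccp84Ag and Cpr50Cb were lower, at 0.256 and 0.167 CPM against at least 0.676 and 0.614 CPM, and at 1.06 and 0.666 CPM against at least 1.83 and 1.32 CPM. Cpr47Ea, a further cuticle protein gene, was higher at 31.2 and 35.8 CPM against at most 19.0 and 13.8 CPM. It overlaps Or47a on the opposite strand.

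GstS1, a glutathione S-transferase, stood at 984 and 1338 CPM against at most 952 and 1040 CPM, and the UDP-glycosyltransferase gene Ugt37D1 at 78.3 and 76.2 CPM against at most 69.0 and 55.5 CPM. The ribosomal protein gene RpL22-like stood at 48.8 and 49.8 CPM against at most 36.4 and 42.1 CPM. Prosbeta4R1, a proteasome subunit gene, was lower at 9.94 and 8.62 CPM against at least 13.3 and 11.7 CPM. Of the chemoreceptor genes, Or59c was lower at 1.39 and 2.21 CPM against at least 2.21 and 4.04 CPM, and Gr23a was higher at 1.17 and 0.666 CPM against at most 0.283 and 0.312 CPM. Or59c overlaps CG43795 on the opposite strand. CG4757 stood at 123 and 178 CPM against 2.74 to 26.3 and 0.865 to 104 CPM.

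Over all genes tested, 4.85% lay above all other lines in both treatments and 4.15% below. Among the lists not described above, 2 of 15 Bomanin and Daisho genes (13.3%) lay above, as did 3 of 25 photoreceptor and eye genes (12%). Of 34 UDP-glycosyltransferases 3 lay above (8.82%) and 1 below (2.94%), and of 48 proteasome subunits 4 below (8.33%). Of 83 cuticular protein genes 3 lay above (3.61%) and 5 below (6.02%), near the shares over all genes. None of 14 antimicrobial peptides, 12 peptidoglycan recognition proteins, 19 piRNA pathway genes, 10 circadian clock genes, and 16 insulin and TOR genes lay outside. At the shares over all genes, lists this short would hold few such members. The Turandot and thioester protein genes summed to 940 and 855 CPM, above the highest other line at 692 and 785 CPM.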
